A study of Mus musculus with 49 samples.

Results

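Aminoacyl-tRNA synthetases attach each amino acid to its transfer RNA (tRNA), and their transcripts were followed here in mouse liver after a toxic dose of acetaminophen. Members were chosen by gene symbol in the array's probe annotation, over probe sets with 1 symbol: 1 letter followed by "ars" with or without a final 1 or 2, plus Eprs, Farsa and Farsb. This gave 35 of 18194 genes, read by 72 of 34958 probe sets. Of these, 19 are counted as cytosolic and 16, whose symbols end in 2, as mitochondrial. The cytosolic genes were split into 7 whose enzymes sit in the multisynthetase complex (Eprs, Iars, Kars, Lars, Mars1, Qars and Rars) and 12 free-standing ones (Aars, Cars, Farsa, Farsb, Gars, Hars, Nars, Sars, Tars, Vars, Wars and Yars). The lists drawn up for the complex and for the mitochondrion held 8 and 17 genes, of which 7 and 16 were measured, so neither set is complete.

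Cells keep separate sets of synthetases for the cytosol and for the mitochondrion, and most mitochondrial enzymes come from nuclear genes of their own. Gars and Kars are exceptions, since each encodes both forms, and they are counted here with the cytosolic set by their symbols. Several cytosolic synthetase genes are known targets of ATF4, the transcription factor of the amino acid and endoplasmic reticulum stress responses, which binds composite elements with C/EBP partners, and of Myc, which drives ribosome production and growth. In the liver, acetaminophen overdose damages mitochondria of the hepatocytes around the central vein, and the surviving hepatocytes then divide to restore the organ.

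The study profiled livers of male C57BL6/N mice on 49 Affymetrix Mouse Genome 430 2.0 arrays, each giving 1 log2 expression value per probe set. The 9 treated groups were taken in the first day (1 h, 6 h, 12 h and 1 d), the first week (2 d, 4 d and 6 d) or later (8 d and 16 d) after 1 intraperitoneal dose of 300 mg/kg acetaminophen, given in phosphate-buffered saline after a night without food, with free feeding from then on. The control group carries the treatment label none, and whether its mice were starved or injected with vehicle is not stated. Groups had 5 arrays, except 6 h with 4. The submitters' design text stops at 8 d, so only the sample labels describe the 16 d mice. The labels do not say that replicates were separate mice, so p-values measure the spread between arrays, which may be in part technical.

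Values for all members were present on 25 arrays, namely the groups at 1 h, 12 h and 1 d and those at 2 d and 16 d. The other 24 arrays (control and 6 h, and 4 d to 8 d) covered 9 of the members. All 35 genes were therefore compared with the 1 h group, the earliest complete one, and 9 genes (Aars, Farsb, Gars, Hars, Kars, Qars, Rars, Wars and Hars2) with control. The 12 h, 1 d, 2 d and 16 d comparisons share the same 5 arrays at 1 h. Free feeding began at the dose, so time after the dose and time since the fast cannot be told apart in them. Differences are log2 values, the later or treated group minus the other, ± SE, the standard error from limma fitted to all arrays of the set, and a call means that the p-value, adjusted by Benjamini and Hochberg's method across every gene of the set, was under 0.05. The arrays resembled each other (correlations 0.920 to 0.996), but control replicate 3, 1 h replicate 3 and 16 d replicate 4 had a narrower spread of values (SD 2.25 to 2.26, against 2.40 to 2.48 on the others), and results that depend on them are also given without these 3 narrow arrays. Hepatocyte markers fixed from general knowledge averaged between 12.03 and 12.88 on every array over the 5 markers with control values, near the top of the scale, whose highest value was 14.34. Member levels on the log2 scale ran up to 10.44 for Nars (mean over the 25 arrays). The member nearest to background was Mars2 at 2.90, under the 10th percentile of all gene means (3.35).

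Most cytosolic synthetase transcripts were higher by 12 h and through 2 d than at 1 h, whereas few mitochondrial ones passed the test and those were lower. At 12 h, 12 of 19 cytosolic genes were higher than at 1 h and 0 were lower, beside 8.29% of all genes called higher and 10.3% called lower. At 1 d the count was 12 higher and 0 lower, beside 11.6% and 11.7% of all genes. At 2 d it was 11 higher and 0 lower, beside 14.8% and 13.3%. The median cytosolic difference was 0.52 at 12 h, 0.44 at 1 d and 0.37 at 2 d, where the median of all genes was -0.08, -0.07 and -0.08. Of the 19 genes, 19, 19 and 18 had a difference above 0 at 12 h, 1 d and 2 d. The changes were small in fold terms, the highest being 1.85-fold for Sars at 1 d.

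**Figure D1:**
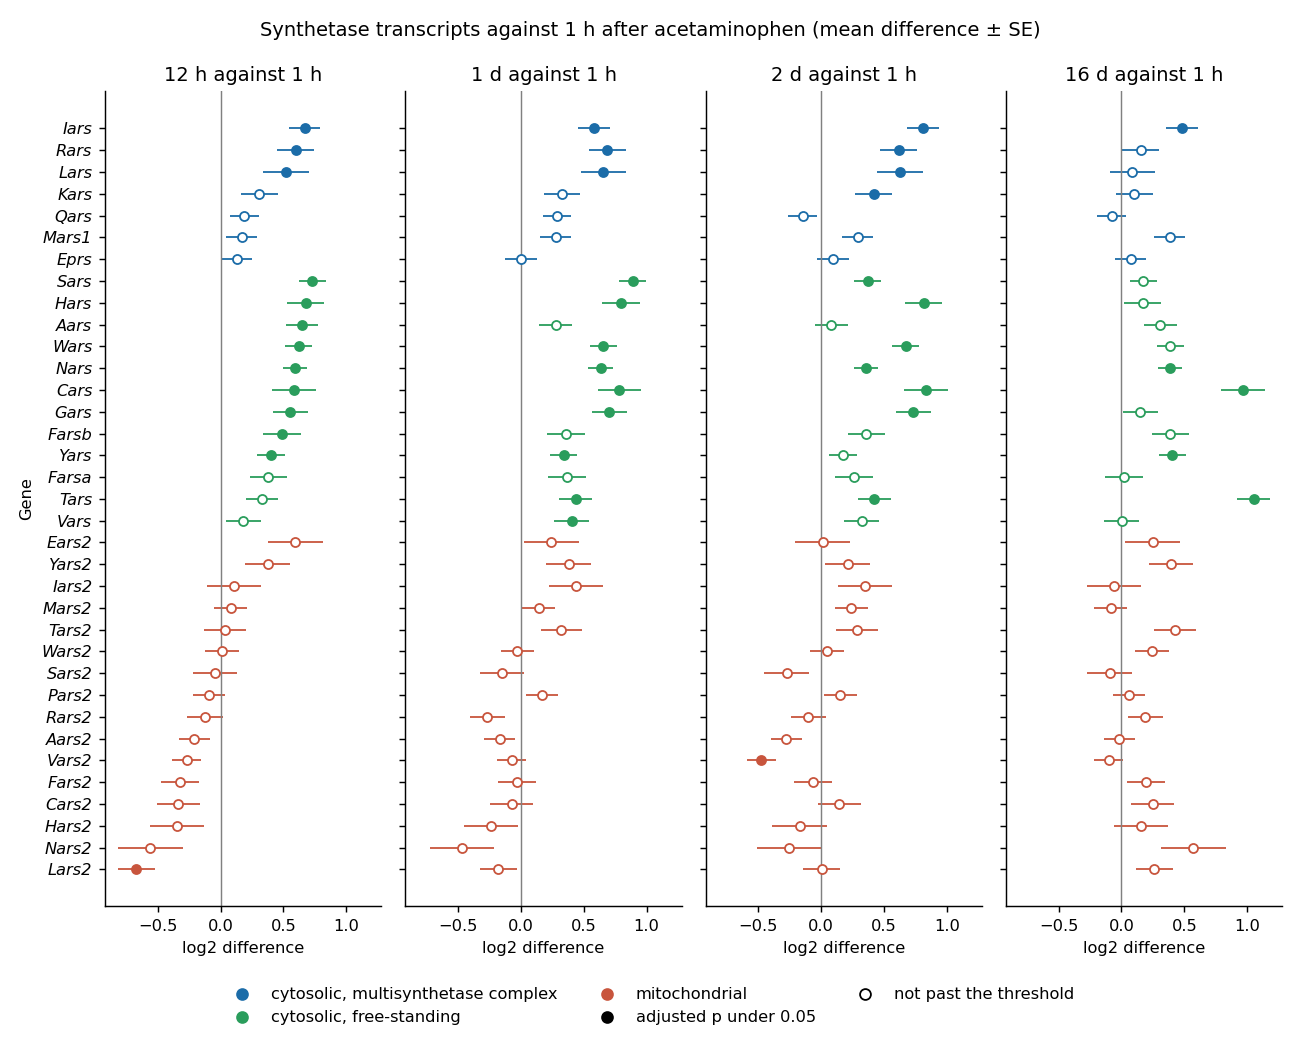
Difference from 1 h (log2, horizontal axis) of each of the 35 synthetase genes at 12 h, 1 d, 2 d and 16 d, as mean difference ± SE with 5 arrays per group; filled points passed an adjusted p under 0.05. Filled points of the 19 cytosolic genes (blue and green) lie right of 0 in all 4 panels, and of the mitochondrial genes (red) only Lars2 at 12 h and Vars2 at 2 d are filled, both left of 0.

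The 9 genes called higher at all of 12 h, 1 d and 2 d were Cars, Gars, Hars, Iars, Lars, Nars, Rars, Sars and Wars. Another 6 were called at 1 or 2 of these times (Aars, Farsb, Kars, Tars, Vars and Yars). Eprs, Farsa, Mars1 and Qars were called at none of them. Eprs, the bifunctional enzyme for glutamate and proline, differed from 1 h by 0.13 ± 0.12, 0.00 ± 0.12 and 0.09 ± 0.12 at 12 h, 1 d and 2 d. Among the 7 genes of the multisynthetase complex 3, 3 and 4 rose at 12 h, 1 d and 2 d, and among the 12 free-standing genes 9, 9 and 7 did. Whether these shares differ was not tested. Arrays at the later time lay above all 1 h arrays for 9 cytosolic genes at 12 h, 10 at 1 d and 8 at 2 d, where 6.68%, 9.05% and 12% of all genes did so (8.29%, 11.6% and 14.8% were called higher). Gars, Hars, Iars, Nars and Wars did so at all 3 times.

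Sars, the seryl-tRNA synthetase, had the highest difference of the set at both 12 h and 1 d. Its log2 levels were 8.42, 8.60, 8.09, 8.46 and 8.49 at 1 h, 9.06, 9.24, 9.24, 8.97 and 9.21 at 12 h and 9.52, 9.20, 9.24, 9.38 and 9.19 at 1 d. They were 8.75, 8.88, 8.55, 8.75 and 8.99 at 2 d and 8.65, 8.77, 8.68, 8.30 and 8.55 at 16 d. Every 12 h and 1 d array lay above every 1 h array, while the 2 d arrays overlapped the 1 h ones and the 16 d arrays overlapped both. The difference from 1 h was 0.73 ± 0.11 (1.66-fold, adjusted p = 4.31e-05) at 12 h, 0.89 ± 0.11 (1.85-fold, adjusted p = 1.99e-06) at 1 d and 0.37 ± 0.11 (1.29-fold, adjusted p = 0.0134) at 2 d, and at 16 d it was 0.17 ± 0.11, which did not pass.

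Hars, the histidyl-tRNA synthetase, had close to the same difference at 12 h, 1 d and 2 d. Its levels were 8.19, 8.34, 7.42, 8.06 and 8.14 at 1 h, 8.61, 8.63, 8.77, 8.92 and 8.61 at 12 h and 9.02, 8.60, 8.81, 8.82 and 8.88 at 1 d. They were 8.90, 8.60, 8.81, 9.02 and 8.89 at 2 d and 8.41, 8.18, 8.26, 7.70 and 8.45 at 16 d. The lowest 1 h and 16 d values stand on narrow arrays, and the other arrays of those groups also lay below all 12 h, 1 d and 2 d arrays. Differences from 1 h were 0.68 ± 0.15 (1.6-fold, adjusted p = 0.00206), 0.80 ± 0.15 (1.74-fold, adjusted p = 0.000287) and 0.81 ± 0.15 (1.76-fold, adjusted p = 0.000194) at 12 h, 1 d and 2 d. A second probe set of Hars was called higher at the same times, at 0.54, 0.49 and 0.38.

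Nars, the asparaginyl-tRNA synthetase and the member with the highest level, was at 10.13, 10.17, 9.86, 10.03 and 10.03 at 1 h, 10.50, 10.48, 10.86, 10.77 and 10.57 at 12 h and 10.80, 10.53, 10.66, 10.84 and 10.55 at 1 d. It was at 10.49, 10.27, 10.36, 10.40 and 10.48 at 2 d and 10.50, 10.55, 10.49, 10.19 and 10.41 at 16 d. All arrays from 12 h onwards lay above all 1 h arrays. The differences from 1 h were 0.59 ± 0.10 (1.51-fold, adjusted p = 0.000114) at 12 h, 0.63 ± 0.10 (1.55-fold, adjusted p = 3.05e-05) at 1 d and 0.36 ± 0.10 (1.28-fold, adjusted p = 0.0075) at 2 d.

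Iars, the isoleucyl-tRNA synthetase of the complex, had levels of 8.10, 8.22, 7.56, 8.17 and 8.07 at 1 h, 8.56, 8.68, 8.73, 8.90 and 8.60 at 12 h and 8.66, 8.62, 8.67, 8.55 and 8.54 at 1 d. At 2 d they were 8.79, 8.89, 8.61, 8.85 and 9.03 and at 16 d 8.66, 8.78, 8.60, 8.10 and 8.40. The 12 h, 1 d and 2 d arrays all lay above the 1 h arrays, of which replicate 3 was lowest. Differences were 0.67 ± 0.12 (1.59-fold, adjusted p = 0.00046) at 12 h, 0.58 ± 0.12 (1.5-fold, adjusted p = 0.00125) at 1 d and 0.81 ± 0.12 (1.75-fold, adjusted p = 2.75e-05) at 2 d.

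Wars, the tryptophanyl-tRNA synthetase and also an interferon-gamma-induced gene, was at 6.32, 6.57, 6.37, 6.44 and 6.56 at 1 h, 6.94, 7.32, 7.00, 7.01 and 7.08 at 12 h and 7.07, 6.91, 7.11, 7.41 and 7.03 at 1 d. It was at 7.06, 6.93, 7.01, 7.22 and 7.40 at 2 d and 6.80, 6.88, 7.09, 6.73 and 6.69 at 16 d. No array after 1 h fell into the 1 h range. The differences from 1 h were 0.62 ± 0.11 (1.54-fold, adjusted p = 0.00024) at 12 h, 0.65 ± 0.11 (1.57-fold, adjusted p = 7.99e-05) at 1 d and 0.67 ± 0.11 (1.59-fold, adjusted p = 4.73e-05) at 2 d. Probe sets of Wars disagreed in size: 1 other was called at all 3 times (0.75, 0.76 and 0.74) and the 2 remaining ones were not called, at 0.13 to 0.42 and 0.27 to 0.33. Of 14 measured interferon-induced genes, 1, 0 and 6 were called higher and 5, 2 and 1 lower at 12 h, 1 d and 2 d.

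Of the remaining called genes with the highest differences, Aars, the alanyl-tRNA synthetase, passed at 12 h alone, at 0.65 ± 0.13 (1.57-fold, adjusted p = 0.000919), and at 1 d and 2 d it stood at 0.28 ± 0.13 and 0.08 ± 0.13, not called. Rars, for arginine, was higher by 0.60 ± 0.15 (1.52-fold, adjusted p = 0.00552) at 12 h, 0.69 ± 0.15 (1.61-fold, adjusted p = 0.00128) at 1 d and 0.62 ± 0.15 (1.53-fold, adjusted p = 0.00293) at 2 d. Gars, for glycine, was higher by 0.70 ± 0.14 (1.63-fold, adjusted p = 0.000593) at 1 d and 0.73 ± 0.14 (1.66-fold, adjusted p = 0.000343) at 2 d. Lars, for leucine, was higher by 0.66 ± 0.18 (1.57-fold, adjusted p = 0.00983) at 1 d and 0.62 ± 0.18 (1.54-fold, adjusted p = 0.0123) at 2 d, and its 12 h call, at an adjusted p of 0.0466, was lost without any 1 of the 12 h arrays or of 1 h replicates 1, 3 and 5 (0.31 without 1 h replicate 3, adjusted p = 0.152, and 0.45 to 0.57 without the others). Without the 3 narrow arrays together it was kept, at 0.31 (adjusted p = 0.0469). Cars, the cysteinyl-tRNA synthetase, was higher by 0.78 ± 0.17 (1.72-fold, adjusted p = 0.00164) at 1 d and 0.83 ± 0.17 (1.78-fold, adjusted p = 0.000802) at 2 d by its brighter probe set. Its other probe set went the other way, at -0.41 at 1 d and -0.50 at 2 d (called lower at 2 d, adjusted p = 0.0488), so the direction of Cars depends on the probe set.

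The next calls were lost without some single arrays. Tars, for threonine, was higher by 0.44 ± 0.13 (1.35-fold, adjusted p = 0.0155) at 1 d and 0.42 ± 0.13 (1.34-fold, adjusted p = 0.0167) at 2 d, and without 1 h replicate 3 it stood at 0.33 (adjusted p = 0.0568) and 0.32 (adjusted p = 0.0631). Without the 3 narrow arrays the same 2 differences were called (adjusted p = 0.0284 and 0.0319). Kars, for lysine, passed at 2 d (0.42) but not without 1 h replicate 3 (0.28, adjusted p = 0.13) or without 1 h replicate 1 or 2 d replicate 1, 4 or 5 (0.39 to 0.41), while without the 3 narrow arrays it was called (0.28, adjusted p = 0.0299). Vars, for valine, passed at 1 d (0.40) but not without 1 d replicate 1, 4 or 5 or any 1 of 1 h replicates 1 to 4 (0.31 to 0.40), and not without the 3 narrow arrays (0.39, adjusted p = 0.0584). Yars, for tyrosine, passed at 12 h (0.40 ± 0.11), a call kept whichever single array was left out, and at 1 d (0.34), a call not kept without 1 d replicate 4 or 5 or 1 h replicate 1 or 3 (0.25 to 0.33) but kept without the 3 narrow arrays (0.25, adjusted p = 0.0356). Farsb, the beta subunit for phenylalanine, passed at 12 h (0.49) but not without 12 h replicate 1, 3 or 4 or 1 h replicate 3 (0.42 to 0.45), and Cars at 12 h (0.59) not without 12 h replicate 3 or 1 h replicate 3 (0.51 and 0.41). Both 12 h calls were kept without the 3 narrow arrays, at 0.42 (adjusted p = 0.0474) for Farsb and 0.41 (adjusted p = 0.0176) for Cars. Without the probe sets marked as able to read several transcripts (_s_, _x_ and _a_), Farsb stood at 0.09 at 12 h (adjusted p = 0.594).

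**Figure D2:**
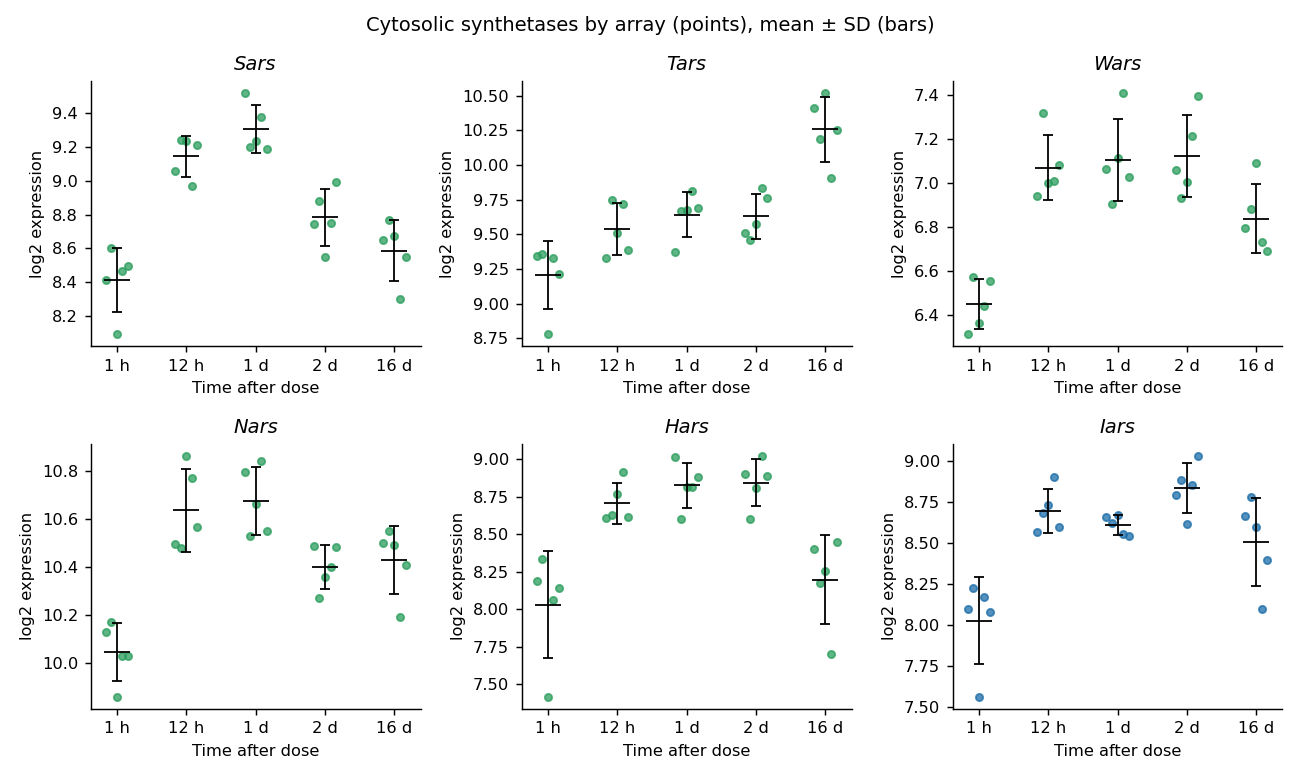
Log2 expression (vertical axes) of the 6 cytosolic synthetases with the smallest moderated F-test p over the 5 complete groups, by time after the dose; points are arrays and bars the mean ± SD of 5 arrays. Sars is highest at 1 d, Hars, Iars, Nars and Wars lie above 1 h at 12 h, 1 d and 2 d, and Tars is highest at 16 d.

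At 16 d only some of the genes stood above 1 h, and a different one led. Against 1 h, 5 cytosolic genes and 0 mitochondrial ones were called higher and 0 of either lower, beside 1.46% of all genes higher and 1.32% lower. Tars, the threonyl-tRNA synthetase, had log2 levels of 9.35, 9.36, 8.78, 9.33 and 9.22 at 1 h, 9.33, 9.75, 9.51, 9.72 and 9.39 at 12 h and 9.37, 9.67, 9.67, 9.81 and 9.69 at 1 d. They were 9.51, 9.46, 9.58, 9.84 and 9.77 at 2 d and 10.41, 10.19, 10.52, 9.91 and 10.26 at 16 d. Every 16 d array lay above every array of the 1 h, 12 h, 1 d and 2 d groups. Tars was higher by 1.05 ± 0.13 (2.07-fold, adjusted p = 2.22e-05) than at 1 h and by 0.63 ± 0.13 (1.54-fold, adjusted p = 0.000895) than at 2 d, and this was the only synthetase whose difference from 1 h reached 2-fold at any time. Cars followed at 0.97 ± 0.17 (1.95-fold, adjusted p = 0.00146) by its brighter probe set, and -0.09 by the other, not called. Iars, Yars and Nars stood at 0.48 ± 0.12 (1.4-fold, adjusted p = 0.0316), 0.40 ± 0.11 (1.32-fold, adjusted p = 0.045) and 0.38 ± 0.10 (1.31-fold, adjusted p = 0.0261). Leaving out 16 d replicate 1, 2 or 3, or 1 h replicate 3 or 5, ended all 3 of these calls and left 2 genes called (0.37 to 0.49 for Iars, 0.34 to 0.38 for Nars and 0.32 to 0.44 for Yars). Leaving out 1 h replicate 4 left 3, and leaving out the narrow 16 d replicate 4 gave 9. Without the 3 narrow arrays all 3 calls were kept (adjusted p = 0.0071 for Iars, 0.0211 for Nars and 0.0138 for Yars). The calls of Tars and Cars were not lost by leaving out any single array.

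Set against 2 d, 4 of the early risers were lower at 16 d. Gars, Hars, Lars and Rars were called lower at 16 d than at 2 d, with differences of -0.58 ± 0.14 (adjusted p = 0.0036), -0.65 ± 0.15 (adjusted p = 0.00238), -0.54 ± 0.18 (adjusted p = 0.0354) and -0.46 ± 0.15 (adjusted p = 0.0266), and Tars alone of the cytosolic genes was called higher. With all arrays that is 4 lower and 1 higher of 19, beside 12.7% and 8.54% of all genes. The median cytosolic difference was -0.20, against 0.06 for all genes. With the arrays centred on ribosomal protein genes, which moves the median of all genes by 0.33 in this comparison, the cytosolic count became 9 higher and 2 lower and the median 0.13. With the arrays centred on their medians it was 3 higher and 3 lower. The shares of all genes called under these scalings are not given here. Without the 3 narrow arrays the same 4 genes were called lower. Aars (0.35, adjusted p = 0.0246) and Yars (0.32, adjusted p = 0.00906) were then called higher besides Tars. Without 16 d replicate 4, Lars stood at -0.39 (adjusted p = 0.126) and Rars at -0.34 (adjusted p = 0.0969), and without all 3 narrow arrays the same 2 differences were called (adjusted p = 0.0132 and 0.0362). The 2 calls were also lost without 2 d replicate 1, 4 or 5, Lars without 2 d replicate 2 and Rars without 16 d replicate 5 (-0.55 to -0.50 for Lars and -0.45 to -0.42 for Rars).

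An ATF4-C/EBP composite element was found in 4 of the cytosolic promoters searched. RefSeq's promoter windows (GRCm38.p6, from 250 bases before to 50 bases after a start in its table) were searched for 25 of the 35 genes, 11 cytosolic and 14 mitochondrial. Cars, Hars, Hars2, Lars, Nars, Pars2, Rars, Vars and Wars are not in that table. The element was searched on both strands as TGATGCAA and as TGATGNAA (every TGATGCAA is also a TGATGNAA), and the E-box bound by Myc and other factors as CACGTG. TGATGCAA occurred in Iars, Tars and Yars, 3 of the 11 cytosolic promoters and 0 of the 14 mitochondrial ones, and in 0.895% of all 32851 windows. TGATGNAA added Gars, against 3.97% of all windows, and CACGTG occurred in Iars, Tars, Farsb and the mitochondrial Ears2, against 7.15%. Only promoters with a match are shown, so that these 4 genes share the element follows from the choice. The other cytosolic promoters searched had no match to it. The sites are shown with 11 bases on each side, 5′ to 3′ on the strand of the gene and with the element in capitals.
Gars (chr6:55037960-55037989, plus strand): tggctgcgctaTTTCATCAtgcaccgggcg
Iars (chr13:49682126-49682155, plus strand): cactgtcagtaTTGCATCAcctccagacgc
Tars (chr15:11399655-11399684, minus strand): caggagtcccgTTGCATCAgctggttagct
Yars (chr4:129189895-129189924, plus strand): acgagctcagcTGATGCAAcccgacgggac

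Counted from the start used in RefSeq's promoter table, which for Yars lies downstream of the outermost start of the gene, the first base of the element lies at -30 in Gars, 8 in Iars, -15 in Tars and 4 in Yars. The Yars element lies on the gene's own strand and the others on the opposite strand. All of these 4 genes were called higher than 1 h at 1 or more of 12 h, 1 d and 2 d, as were 15 of all 19 cytosolic genes. Whether the element bears on these calls was not tested. The letters mark a match and not a bound site, and Sars, Kars and Farsb, which were also called at 1 or more of these times, have neither form of the element in their windows.

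Few mitochondrial synthetases were called. At 12 h, 0 of 16 were called higher than 1 h and 1 lower. At 1 d 0 were called in either direction, and at 2 d 0 were called higher and 1 lower. With limma at an unadjusted p under 0.05 there were 2 higher and 4 lower at 12 h, 1 higher and 0 lower at 1 d, and 0 higher and 2 lower at 2 d. The median mitochondrial difference was -0.11, -0.05 and 0.01, close to the -0.08, -0.07 and -0.08 of all genes. The background shares are those given for the cytosolic genes.

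Lars2, the mitochondrial leucyl-tRNA synthetase, had the lowest difference at 12 h. Its levels were 7.07, 7.25, 6.81, 7.07 and 7.08 at 1 h, 6.53, 5.99, 6.15, 6.78 and 6.47 at 12 h and 6.70, 6.70, 6.99, 6.89 and 7.10 at 1 d. They were 7.36, 6.63, 6.92, 7.35 and 7.05 at 2 d and 7.43, 7.42, 7.48, 7.06 and 7.19 at 16 d. All 12 h arrays lay below all 1 h arrays, and the groups overlapped at 1 d and 2 d. The 12 h difference was -0.67 ± 0.15 (adjusted p = 0.00217), and it came from 1 of 3 probe sets: the other 2, both dimmer, stood at 0.10 and 0.08, and with the mean of all 3 the difference was -0.16 (adjusted p = 0.176).

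Vars2, for valine, had levels of 6.74, 6.53, 6.47, 6.62 and 6.71 at 1 h, 6.32, 6.35, 6.66, 6.19 and 6.21 at 12 h and 6.72, 6.45, 6.77, 6.42 and 6.35 at 1 d. They were 6.16, 6.23, 6.41, 6.01 and 5.90 at 2 d and 6.57, 6.64, 6.66, 6.21 and 6.49 at 16 d. All 2 d arrays lay below all 1 h arrays, with a difference of -0.47 ± 0.12 (adjusted p = 0.0036), and at 16 d Vars2 was higher than at 2 d by 0.37 ± 0.12 (1.29-fold, adjusted p = 0.0239). Its other probe set did not pass in either comparison (-0.14 and 0.25).

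Nars2, for asparagine, depended on the narrow arrays. Its levels were 7.02, 7.16, 5.96, 7.02 and 7.24 at 1 h, 6.44, 5.52, 6.29, 6.59 and 6.78 at 12 h and 6.25, 6.32, 6.39, 6.45 and 6.66 at 1 d. They were 6.98, 6.26, 6.56, 6.72 and 6.60 at 2 d and 7.72, 7.60, 7.91, 6.44 and 7.58 at 16 d. The lowest values at 1 h and at 16 d are those of the narrow arrays, and the other arrays of those groups lay above all 12 h, 1 d and 2 d arrays. With all arrays the differences from 1 h did not pass at 12 h, 1 d or 2 d (-0.56 ± 0.26, -0.47 ± 0.26 and -0.26 ± 0.26), and Nars2 was higher at 16 d than at 2 d by 0.83 ± 0.26 (1.78-fold, adjusted p = 0.0223). Without the narrow arrays it was called lower than 1 h at 12 h (-0.79, adjusted p = 0.00264), at 1 d (-0.70, adjusted p = 0.0059) and at 2 d (-0.49, adjusted p = 0.045), and higher at 16 d than at 2 d (1.08, adjusted p = 0.000116). The calls at 16 d against 2 d were lost without 16 d replicate 3 (0.71, adjusted p = 0.0633, for Nars2, and 0.33, adjusted p = 0.0594, for Vars2), for Nars2 also without 16 d replicate 1 or 2 d replicate 2 (0.74 to 0.76), and for Vars2 without 16 d replicate 2 or 2 d replicate 4 or 5 (0.31 to 0.34).

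Cars2, for cysteine, ranged between 5.82 and 7.15 over the 25 arrays and was called in none of these comparisons, at -0.33 ± 0.17 at 12 h. Leaving out the narrow arrays also brought Fars2 (-0.43, adjusted p = 0.00778) and Hars2 (-0.55, adjusted p = 0.0186) to calls at 12 h against 1 h. Mitochondrial genes called lower then numbered 4, 1 and 2 of 16 at 12 h, 1 d and 2 d, while the cytosolic genes called higher numbered 12, 11 and 11. The shares of all genes given for these times are from the fit with all arrays. Those of the fit without the narrow arrays are not given here, so these counts describe the members alone. At 16 d against 2 d, 2 of 16 mitochondrial genes (12.5%) were called higher and 0 lower with all arrays, beside 8.54% and 12.7% of all genes. The count higher was 4 without the narrow arrays, 5 with median centring and 13 with ribosomal protein centring. The shares of all genes in these alternative fits are not given beside the counts. Ribosomal protein centring also moves the median of all genes in this comparison, so the 13 cannot be read apart from the scaling. Against 1 h, 0 of 16 were called at 16 d, with 3 higher and 0 lower at an unadjusted p under 0.05.

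**Figure D3:**
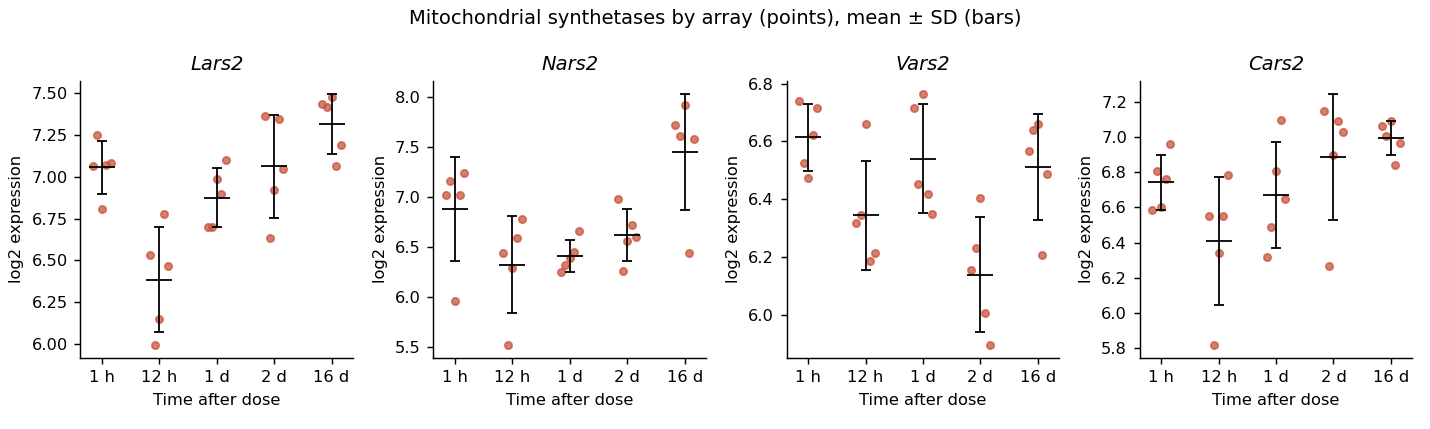
Log2 expression (vertical axes) of the 4 mitochondrial synthetases with the smallest moderated F-test p over the 5 complete groups, by time after the dose; points are arrays and bars the mean ± SD of 5 arrays. Lars2 is lowest at 12 h and Vars2 at 2 d, and Nars2 has 1 low array each at 1 h (5.96) and 16 d (6.44).

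For 14 amino acids a cytosolic and a mitochondrial gene were both measured, which sets the compartments side by side for the same substrate. The cytosolic gene had the higher difference from 1 h in 14 of 14 pairs at 12 h, 13 at 1 d and 13 at 2 d, by a median of 0.71, 0.58 and 0.62. It did so in 10 pairs at 16 d against 1 h, with a median of 0.13, and in 5 pairs at 16 d against 2 d, with a median of -0.43. The widest pair at 12 h was Lars with Lars2 (1.19 apart), followed by Nars with Nars2 (1.15) and Hars with Hars2 (1.02). Yars and Yars2 were the closest, 0.03 apart at 12 h. The pairs share their arrays, so these counts are descriptions without a test.

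**Figure D4:**
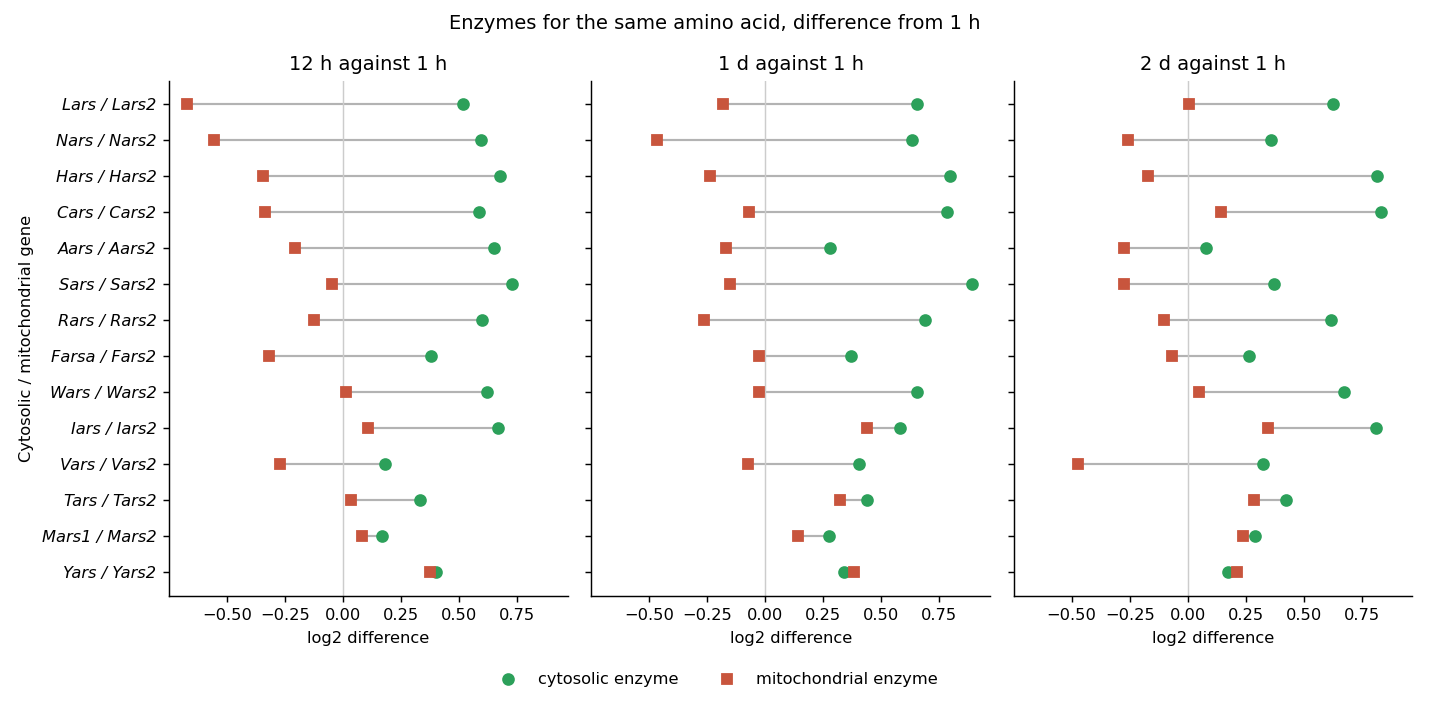
Difference from 1 h (log2, horizontal axis) of the cytosolic (circle) and mitochondrial (square) synthetase gene for the same amino acid at 12 h, 1 d and 2 d, with 5 arrays per group. Circles lie right of squares in 14, 13 and 13 of the 14 pairs, and the Yars and Yars2 pair is the one turned round at 1 d and 2 d.

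The size of these shifts depended on the scaling of the arrays. Centring them on cytosolic ribosomal protein genes, which were themselves higher at these times, moved the median of all genes by -0.24, -0.40 and -0.34 at 12 h, 1 d and 2 d. Cytosolic synthetases then stood at a median of 0.28, 0.04 and 0.03, against -0.32, -0.47 and -0.42 for all genes, with 8, 7 and 5 called higher and 0, 1 and 1 lower. Mitochondrial synthetases called lower then numbered 9, 10 and 9 of 16, in a scaling where 8351, 11973 and 10811 of all 18194 genes were called lower. Centring on the median of each array changed the 2 d count to 8 cytosolic genes higher and 0 lower, and moved the median of all genes by -0.11. The share of all genes called higher is not given here for either centring.

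Against control, the calls among the 9 genes with control values fell at 12 h, 1 d and 2 d. The treated groups from 1 h to 16 d are all set against the same 5 control arrays. At 1 h, 0 of 9 were called, beside 0.636% of all genes in either direction, with 0 at an unadjusted p under 0.05 by limma, and the differences lay between -0.24 (Rars) and 0.12 (Qars), with 2 of 8 cytosolic genes above 0. At 6 h, 0 were called, beside 5.67% of all genes, with 0 at an unadjusted p under 0.05. At 12 h, 3 of 8 cytosolic genes were higher and 0 lower, beside 11.5% and 12.2% of all genes. At 1 d, 4 were higher and 0 lower, beside 16.2% and 13.4%, and at 2 d, 3 were higher and 0 lower, beside 19.9% and 12.7%. From 4 d on 0 were called, beside 16.5% of all genes at 4 d, 8.53% at 6 d, 8% at 8 d and 6.66% at 16 d. At an unadjusted p under 0.05 limma gave 0 at 4 d, 1 higher at 6 d, 1 higher at 8 d and 0 at 16 d.

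Hars had log2 levels of 7.64, 7.54, 7.09, 7.61 and 7.52 on the control arrays, 7.82, 7.59, 7.60 and 7.74 at 6 h and 7.89, 7.89, 7.86, 7.95 and 7.95 at 12 h, read by its dimmer probe set. They were 8.01, 7.64, 8.07, 7.70 and 7.90 at 1 d, 7.75, 7.47, 7.72, 7.85 and 7.97 at 2 d and 7.70, 7.38, 7.35, 7.47 and 7.69 at 4 d. All 12 h arrays lay above all control arrays, and by 4 d the groups overlapped widely. Hars was higher than control by 0.43 ± 0.11 (1.35-fold, adjusted p = 0.00421) at 12 h and 0.38 ± 0.11 (1.3-fold, adjusted p = 0.00861) at 1 d, and at 2 d it stood at 0.27 ± 0.11 (adjusted p = 0.0599). Without control replicate 3 the 1 d difference was 0.28 (adjusted p = 0.0551), and without all 3 narrow arrays the same difference was called (adjusted p = 0.011).

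Gars had levels of 8.90, 8.90, 7.83, 8.79 and 8.95 on the control arrays, 9.13, 9.07, 9.09, 9.27 and 8.99 at 12 h, 9.47, 8.92, 9.15, 9.55 and 9.23 at 1 d and 9.20, 9.33, 9.01, 9.46 and 9.46 at 2 d. All 12 h and 2 d arrays lay above all control arrays, whose replicate 3 was far below the others. Gars was higher than control by 0.44 ± 0.16 (1.35-fold, adjusted p = 0.0352) at 12 h, 0.59 ± 0.16 (1.51-fold, adjusted p = 0.00303) at 1 d and 0.62 ± 0.16 (1.53-fold, adjusted p = 0.00173) at 2 d. Without control replicate 3 the 12 h difference was 0.23 (adjusted p = 0.241), and it was also lost without any 1 of 12 h replicates 1 to 4 (0.40 to 0.45). Without all 3 narrow arrays the 1 d and 2 d differences were 0.38 (adjusted p = 0.00983) and 0.41 (adjusted p = 0.00556).

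Qars, for glutamine, was higher than control by 0.33 ± 0.11 (1.25-fold, adjusted p = 0.0279) at 12 h, 0.43 ± 0.11 (1.35-fold, adjusted p = 0.00273) at 1 d and 0.35 ± 0.11 (1.28-fold, adjusted p = 0.0132) at 2 d. Rars was higher at 1 d alone, by 0.45 ± 0.15 (1.37-fold, adjusted p = 0.0211), and Wars at 2 d alone, by 0.52 ± 0.16 (1.44-fold, adjusted p = 0.0106), read there by a dim probe set with a mean level of 5.08. Without control replicate 3, Qars fell short at 12 h (0.21, adjusted p = 0.159) and at 2 d (0.23, adjusted p = 0.0977), and so did Rars at 1 d (0.26, adjusted p = 0.171). The 12 h call of Qars was also lost without 12 h replicate 4 or 5 (0.29 and 0.31), and the Rars call without 1 d replicate 4 (0.41). Without the 3 narrow arrays Qars was called at 1 d (0.31, adjusted p = 0.0117), but not at 12 h (adjusted p = 0.106) or 2 d (adjusted p = 0.0608), and Rars not at 1 d (adjusted p = 0.0724).

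The probe sets of Qars disagreed. Against control it was read by the one probe set with control values, which against 1 h stood at 0.21, 0.31 and 0.23 at 12 h, 1 d and 2 d. The brightest one, which reads Qars against 1 h, stood at 0.19, 0.29 and -0.15 (called at none of them), another at 0.40, 0.41 and 0.38 (called at all 3), and a dim one at -0.32 at 2 d (called lower). The sign for Qars at 2 d thus depends on the probe set.

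Aars, Farsb and Kars were called at no time against control. Kars stood at 0.25 ± 0.15, 0.27 ± 0.15 and 0.36 ± 0.15 at 12 h, 1 d and 2 d (limma, adjusted p = 0.255, 0.188 and 0.062). Aars lay at 0.28 ± 0.16 at 12 h and -0.27 ± 0.16 at 2 d, and Farsb between -0.20 at 1 h and 0.30 at 8 d.

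Hars2, the 1 mitochondrial member on the control arrays, had lower means than control at the times when Hars was high. Its levels were 7.12, 7.38, 6.50, 7.49 and 7.29 on the control arrays, 6.60, 6.68, 6.95 and 6.93 at 6 h and 6.89, 6.11, 6.63, 6.71 and 7.09 at 12 h. They were 6.46, 6.69, 6.82, 6.96 and 7.03 at 1 d, 7.15, 6.50, 6.70, 6.87 and 7.08 at 2 d and 7.60, 7.36, 7.65, 7.40 and 7.55 at 8 d. Apart from replicate 3 at 6.50, every control array lay above every 6 h, 12 h and 1 d array. With all arrays Hars2's difference from control did not pass at any time, and stood at -0.37 ± 0.20 at 6 h, -0.47 ± 0.19 at 12 h (adjusted p = 0.0673) and -0.36 ± 0.19 at 1 d. Without the 3 narrow arrays Hars2 was lower than control at 6 h (-0.53, adjusted p = 0.0239), 12 h (-0.63, adjusted p = 0.00102), 1 d (-0.53, adjusted p = 0.00496) and 2 d (-0.46, adjusted p = 0.0141). It was also called lower at 12 h, 1 d and 2 d when the arrays were centred on their medians or on ribosomal protein genes. Either centring shifts the differences of all genes alike. At 2 d against control, Qars moved from 0.35 to 0.09 with median centring and to 0.11 with ribosomal protein centring. The lower calls of Hars2 under these centrings thus cannot be read apart from the scaling, and the shares of all genes called lower are not given. The moderated F-test over all times gave Hars2 an adjusted p of 0.00299 with all arrays, and Hars one of 5.05e-05.

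**Figure D5:**
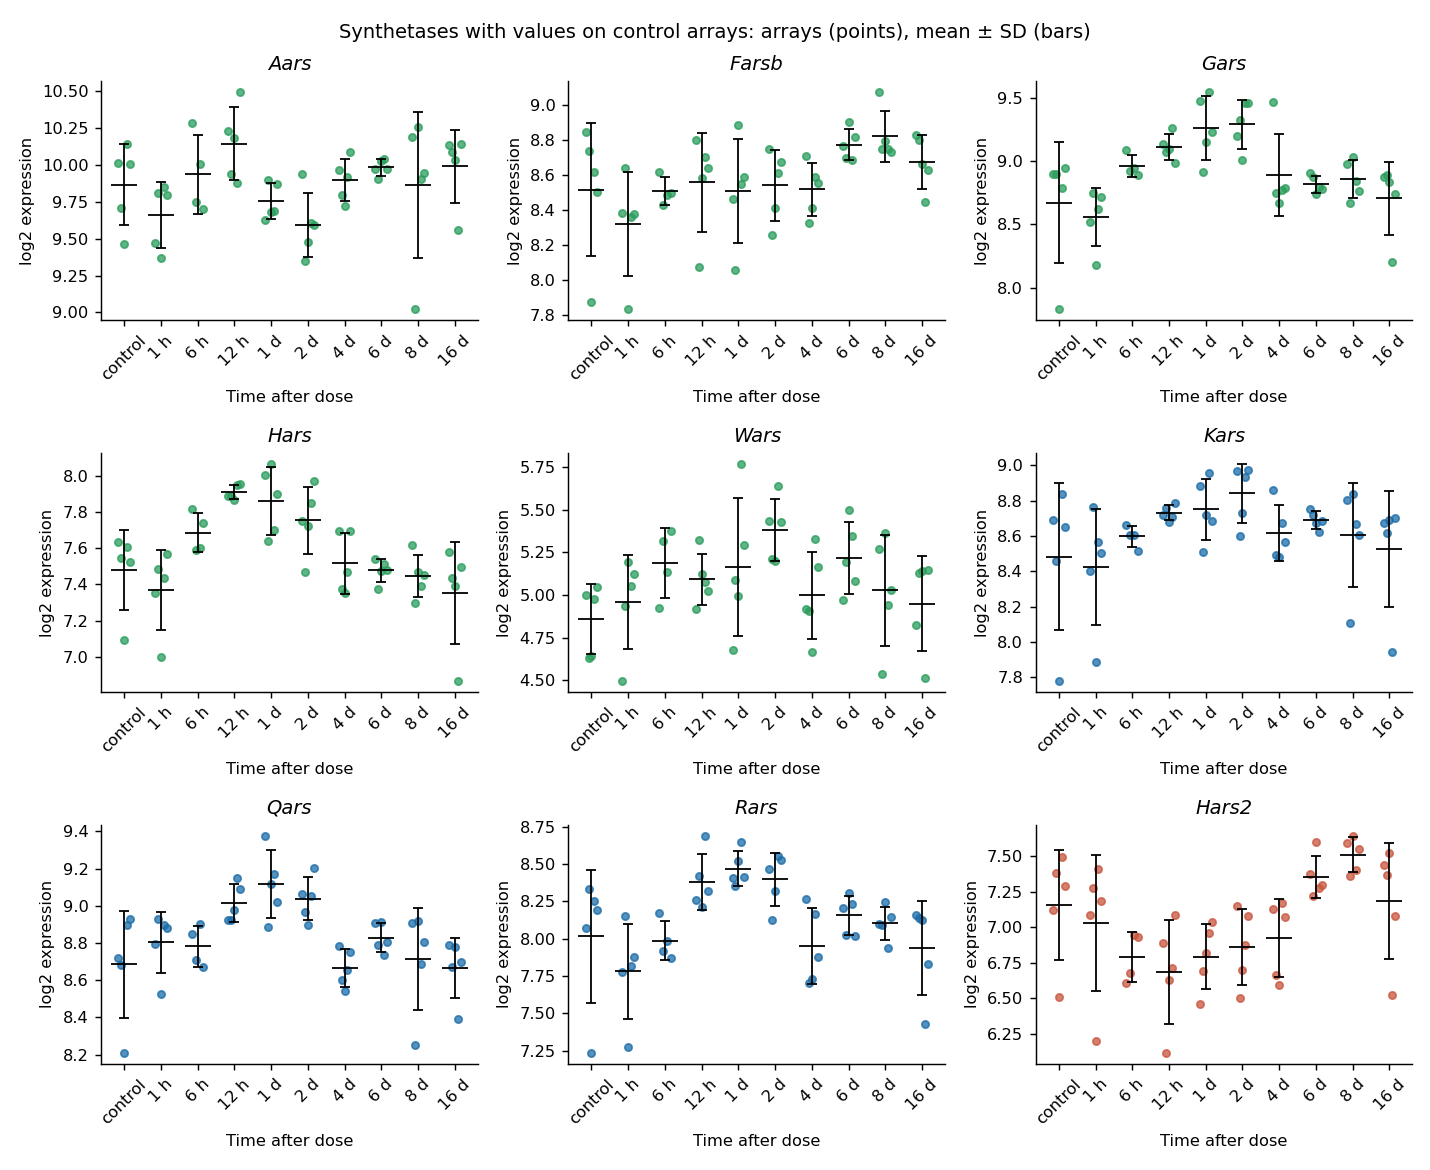
Log2 expression (vertical axes) of the 9 synthetases with values on the control arrays, for control and the 9 times after the dose; points are arrays and bars the mean ± SD of 5 arrays (4 at 6 h). Gars, Hars, Qars and Rars are highest at 12 h to 2 d, and Hars2 is lowest at 12 h and highest at 8 d.

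Other gene lists were counted at 12 h, 1 d and 2 d against 1 h, where 8.29%, 11.6% and 14.8% of all genes were called higher and 10.3%, 11.7% and 13.3% lower. Of 14 measured cofactors and relatives of the synthetases, 3, 3 and 3 (21.4% each) were called higher and 2, 3 and 1 (14.3%, 21.4% and 7.14%) lower. Aimp2 and Eef1e1, scaffold proteins of the multisynthetase complex, were higher at 12 h by 0.78 ± 0.11 and 0.81 ± 0.14, and so was Qrsl1, a subunit of the mitochondrial glutamyl-tRNA amidotransferase, by 0.85 ± 0.21. Aimp2 was still higher at 2 d, by 0.74 ± 0.11. Tarsl2, a second threonyl-tRNA synthetase of the cytosol, went the other way from Tars, and fell by 0.80 at 1 d and by 0.64 at 2 d. Sepsecs, which makes selenocysteinyl-tRNA, fell by 0.82 at 1 d.

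Among other genes of the translation machinery, of 46 cytosolic ribosomal protein genes 21, 34 and 34 (45.7%, 73.9% and 73.9%) were called higher and 0 lower than 1 h at 12 h, 1 d and 2 d. Of 75 mitochondrial ribosomal protein genes 2, 8 and 8 (2.67%, 10.7% and 10.7%) were called higher and 3, 4 and 1 (4%, 5.33% and 1.33%) lower, all below the shares of all genes. Of 11 mitochondrial translation factors 0, 0 and 1 were called higher, and Tufm, the mitochondrial elongation factor, was lower at 12 h, with a difference of -0.40 ± 0.11. At 16 d against 2 d, 34 of the 46 cytosolic ribosomal protein genes were called lower and 0 higher.

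Known targets of ATF4 and of Myc were followed beside the synthetases. Of 31 ATF4 targets that are not synthetases, 13, 13 and 5 (41.9%, 41.9% and 16.1%) were called higher and 3, 4 and 4 (9.68%, 12.9% and 12.9%) lower at 12 h, 1 d and 2 d. The lower counts and the 2 d count are near the shares of all genes. Psat1, of serine synthesis, was higher by 3.90 ± 0.37 at 12 h, 4.46 ± 0.37 at 1 d and 3.24 ± 0.37 at 2 d. Ddit3, the stress transcription factor CHOP, was higher at 12 h by 2.58 ± 0.34, and at 2 d stood at -0.62 ± 0.34, not called. Asns, the asparagine synthetase, and Chac1, which degrades glutathione, were called at 12 h alone, at 1.05 ± 0.28 and 1.27 ± 0.35. Trib3, a pseudokinase, and Xpot, the exporter of tRNA from the nucleus, were called at 1 d alone, at 0.67 ± 0.23 and 0.41 ± 0.14. Atf4 transcript itself was at 0.43 ± 0.18 at 12 h, not called, and lower at 2 d, with a difference of -0.63 ± 0.18.

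Of 29 genes of the Myc and ribosome biogenesis list, 23, 22 and 14 (79.3%, 75.9% and 48.3%) were called higher and 0 lower at 12 h, 1 d and 2 d. Myc was higher by 3.48 ± 0.58 at 12 h, 2.78 ± 0.58 at 1 d and 1.86 ± 0.58 at 2 d. Ncl, the nucleolar protein nucleolin, was higher by 0.99 ± 0.16, 1.15 ± 0.16 and 0.66 ± 0.16. At 16 d, 0 genes of either list were called against 1 h, with 3 higher and 6 lower ATF4 targets and 1 higher and 2 lower Myc-list genes at an unadjusted p under 0.05 by limma. Tars was at its highest at that time.

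Markers of several cell types moved over the same times. Of 12 monocyte and macrophage markers 3, 6 and 8 were called higher and 0, 1 and 0 lower at 12 h, 1 d and 2 d, and their mean log2 level per array lay between 6.45 and 6.98 at 1 h, 6.84 and 7.54 at 12 h, 7.16 and 7.82 at 1 d, 7.61 and 8.15 at 2 d, and 6.14 and 6.97 at 16 d. Of 11 stellate cell and myofibroblast markers 3, 4 and 9 were called higher and 0 lower, with mean levels of 7.97 to 8.68 at 2 d and 5.93 to 6.17 at 1 h. Of 8 neutrophil markers 2, 3 and 1 were called higher and 0 lower, with mean levels of 4.78 to 5.37 at 1 h, 5.44 to 6.85 at 12 h, 5.63 to 6.95 at 1 d and 5.34 to 5.92 at 2 d. Of 9 liver endothelial markers 2, 4 and 5 were called higher and 2, 2 and 0 lower, and of 10 lymphocyte markers 0 were called higher and 1, 3 and 5 lower. Of 11 hepatocyte markers 5, 5 and 4 were called lower and 0 higher, with mean levels of 12.16 to 12.56 at 2 d and 12.67 to 12.81 at 1 h. In whole tissue, fewer cells of a type and less RNA per cell cannot be told apart, and the part of these shifts in the synthetase results was not tested.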

How the data were processed

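Liver RNA of 49 mouse samples was extracted with TRIzol, primed with oligo dT, labelled with biotin and hybridised to 1 array each, per the labels' protocols. The deposited values are log2 expression levels per probe set, made by the authors with RMA and oligo 1.52.0, per the submitters' processing notes. The sources used here do not say if all arrays were normalized in 1 run. All 25 arrays of the 1 h, 12 h, 1 d, 2 d and 16 d groups hold 45101 probe sets, and the other 24 were used over the 8137 probe sets that all 49 arrays share.

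Probe sets with 1 symbol were kept, and a gene was read by its probe set with the highest mean, which can differ between the 2 fits. limma 3.58.1 in R 4.3.3 (lmFit and moderated tests) was run over all 25 arrays and 18194 genes against 1 h and, for 16 d, also against 2 d, and over all 49 arrays and 5976 genes against control, with Benjamini-Hochberg adjustment over all genes and a threshold of 0.05. The number of arrays limits the precision, and the script was tested on simulated data with 200 changed genes. At 12 h against 1 h it found 81% of log2 changes of 1 and 36% of those of 0.5. At 12 h against control it found 87% and 48%. False calls made up 4.1% of the calls against 1 h and 8.16% of those against control. A gene that was not called may therefore still have changed. In each comparison, full statistics are given for at most 6 cytosolic and 4 mitochondrial called members with the largest differences. Values per array are given in the text or figures for those with the smallest moderated F-test p. Of each other list, at most the 3 called genes with the largest differences could be named, and not all of them are. Atf4, Asns, Ddit3, Trib3, Chac1, Xpot, Myc and Ncl could be named whatever their values. Members and lists were chosen with earlier results of these data known. The main fits did not pair arrays by replicate number. Correlations of deviations were over 0.1 in at most 4 of 5 same-numbered pairs of a comparison, and ran from 0.07 to 0.82 at 1 h against control. This check cannot settle whether arrays of the same number share a source or a processing step. Promoters are from RefSeq (GRCm38.p6), and 1 promoter is not reported here. The alternatives tried were other scalings, other rules for probe sets, array weights, a replicate block, fits of only the groups compared, and fits without single arrays or without the 3 narrow ones.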

Additional observations from a re-analysis of the deposited data

Results flagged for a closer look

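Over the members given array by array, 120 groups were searched for 1 array far from the rest, and 15 held one, where chance flags a share of about 0.05 of groups. Of the 15 values, 11 stood on the 3 narrow arrays and 4 on other arrays; the part of the narrow spread in them was not tested.

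Hars values here are those of its dimmer probe set. Control replicate 3 was low for Hars at 7.09 (others 7.52 to 7.64), for Gars at 7.83 (others 8.79 to 8.95) and for Rars at 7.23 (others 8.07 to 8.33). On 1 h replicate 3, Hars2 was low at 6.20 (others 7.09 to 7.41), Tars at 8.78 (others 9.22 to 9.36), Iars at 7.56 (others 8.07 to 8.22) and Nars2 at 5.96 (others 7.02 to 7.24). On 16 d replicate 4, Hars was low at 6.87 (others 7.39 to 7.58), Gars at 8.20 (others 8.74 to 8.89), Aars at 9.56 (others 10.03 to 10.14) and Nars2 at 6.44 (others 7.58 to 7.91).

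The values on other arrays were Gars at 9.47 on 4 d replicate 1 (others 8.67 to 8.79), Aars at 9.02 on 8 d replicate 2 (others 9.90 to 10.26), Farsb at 9.08 on 8 d replicate 1 (others 8.73 to 8.80) and Cars2 at 6.26 on 2 d replicate 2 (others 6.90 to 7.15).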

How the results depend on the processing

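Of 59 called gene and comparison pairs, 39 stayed called when any 1 array was left out and 23 under every alternative. Of 1174 alternative values, 1019 kept direction and call, 154 lost the call, and 1 turned: Yars at 1 d against 1 h stood at -0.059 (adjusted p = 0.57) with ribosomal protein centring. The cause of these changes was not tested. At 6 h against control 1 member, Hars2, was called (lower) with array weights, with quantile normalization and without the narrow arrays, against 0. At 12 h against control, quantile normalization gave 5 (4 higher, 1 lower) and fitting only the 2 groups 1, against 3. At 1 d against control, fitting only the 2 groups gave 0, against 4. At 2 d against control, array weights gave 7 (5 higher, 2 lower) and the replicate block 5, against 3. At 12 h against 1 h, quantile normalization gave 20 (17 higher, 3 lower), against 13. At 16 d against 1 h, leaving out the _s_, _x_ and _a_ probe sets gave 3, array weights 11 and fitting only the 2 groups 2, against 5. At 16 d against 2 d, array weights gave 16, median centring 11, quantile normalization 15, ribosomal protein centring 24 and leaving out the narrow arrays 11, against 7. The shares of all genes called under the alternatives are not given beside these counts. The replicate block also ended the calls of Lars at 12 h (adjusted p = 0.0518) and Yars at 16 d (adjusted p = 0.0526) and no other.

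With 1 array left out, the calls against control numbered 1 to 4 at 12 h (1 without 12 h replicate 4), 3 to 5 at 1 d and 2 to 6 at 2 d (6 without 2 d replicate 2, 5 without control replicate 1 or 4), and 0 at every other time. Against 1 h they numbered 11 to 13 at 12 h, 10 to 13 at 1 d, 10 to 14 at 2 d and 2 to 9 at 16 d. At 16 d against 2 d they numbered 4 to 8 (4 without 2 d replicate 4 or 5). When the probe sets of a gene were averaged, Cars at 12 h, 1 d and 2 d, Farsb and Lars2 at 12 h and Iars at 16 d were not called. Without the _s_, _x_ and _a_ probe sets, Wars was not called at 12 h (0.13), 1 d (0.21) or 2 d (0.42), nor were Farsb (0.09) and Lars (0.52) at 12 h, Iars at 1 d (0.46) and 16 d (0.48) and Yars at 16 d (0.40). Signal over background limits Mars2 most.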
